A study of Mus musculus with 9 samples.

Results

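The genes described here are nuclear effectors of canonical Wnt signalling and genes that the pathway switches on to restrain itself. The list holds 9 genes by name, Lef1, Tcf7, Tcf7l1, Tcf7l2, Axin2, Nkd1, Nkd2, Apcdd1 and Ctnnb1. Each was taken from the probe sets whose platform annotation gives exactly 1 gene symbol. 8 of them were found in this way among 19938 genes, each on 1 probe set, and Tcf7 was not analysed here. The arrays compare 4 preparations of skin-derived precursor cells (SKPs, replicates 3, 4, 5 and 6), which are colonies grown as spheres in primary culture, with 5 preparations of cells sorted straight from dissociated skin (replicates 2, 16, 17, 18 and 20). The sorted cells came from mice carrying a Sox2:EGFP reporter and were gated as EGFP-positive and CD34-negative. The donors of both were neonatal mice of postnatal day 4 (back skin), each preparation was independent and was hybridised to 1 Affymetrix Mouse Gene 1.0 ST array, and the strain behind the SKPs is not given in the labels. No allele other than the reporter and no treatment is named for either group. The SKPs were cultured and not sorted, and the other cells were sorted and not cultured, so culture, sorting and the choice of cells cannot be told apart.

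In canonical Wnt signalling, beta-catenin, the product of Ctnnb1, is marked for destruction by a complex of Axin, Apc, casein kinase 1 and Gsk3 until a Wnt ligand stops that complex. The protein then accumulates, enters the nucleus and binds the HMG box factors Lef1, Tcf7, Tcf7l1 and Tcf7l2, which sit on target genes and repress them when beta-catenin is absent. Axin2, Nkd1, Nkd2 and Apcdd1 are among the targets, and their products damp the signal at successive steps. In the hair follicle Lef1 is known from the matrix and the dermal papilla, a group of mesenchymal cells under the matrix that Sox2 marks in neonatal skin, and beta-catenin in the papilla is needed for its signals to the epithelium.

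Lef1 and all 4 feedback genes were lower in SKPs than in Sox2-sorted cells, by 4.09-fold to 8.51-fold. Tcf7l1 and Tcf7l2 were lower by 1.46-fold and 1.39-fold. Ctnnb1 was at 11.64 ± 0.06 in SKPs (log2, SD, n = 4) and 11.73 ± 0.22 in Sox2-sorted cells (n = 5) and was not called. In all, 7 of the 8 measured genes were lower and 0 higher at a limma adjusted p under 0.05, against 16.9% of all genes lower and 20.2% higher. The median log2 fold change of the 8 genes was -2.10, beside 0.07 over all genes. 5 of the 8 were lower by at least 2-fold and 0 higher by as much, against 6.25% and 5.46% of all genes. In bulk samples such as these, fewer cells of a type and less RNA per cell cannot be told apart.

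All values are log2 RMA levels as deposited, 1 per array, and a difference of 1 is 2-fold. To show what probe sets of silent genes read, 1194 olfactory and vomeronasal receptor genes were used. The 95th percentile of their levels lay between 5.89 and 6.23 on the 9 arrays, and all 8 genes were above it on every array. Sox2, on which the cells were sorted, was at 5.78 to 6.41 in SKPs, above that percentile on 3 of the 4 arrays, and at 8.24 to 9.25 in Sox2-sorted cells. Cd34, which the gate selected against, was at 11.14 to 11.62 in SKPs. In the Sox2-sorted cells it was at 10.19 on replicate 2 and 10.27 on replicate 20, and at 7.31 to 7.82 on the other 3 arrays, so replicates 2 and 20 go against the CD34-negative label at the level of RNA. Results are therefore also given without these 2 arrays for the 8 genes and for some of the other genes. Without replicates 2 and 20 the same 7 genes were lower, and 21.1% of all genes were lower and 25.4% higher.

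**Figure D1:**
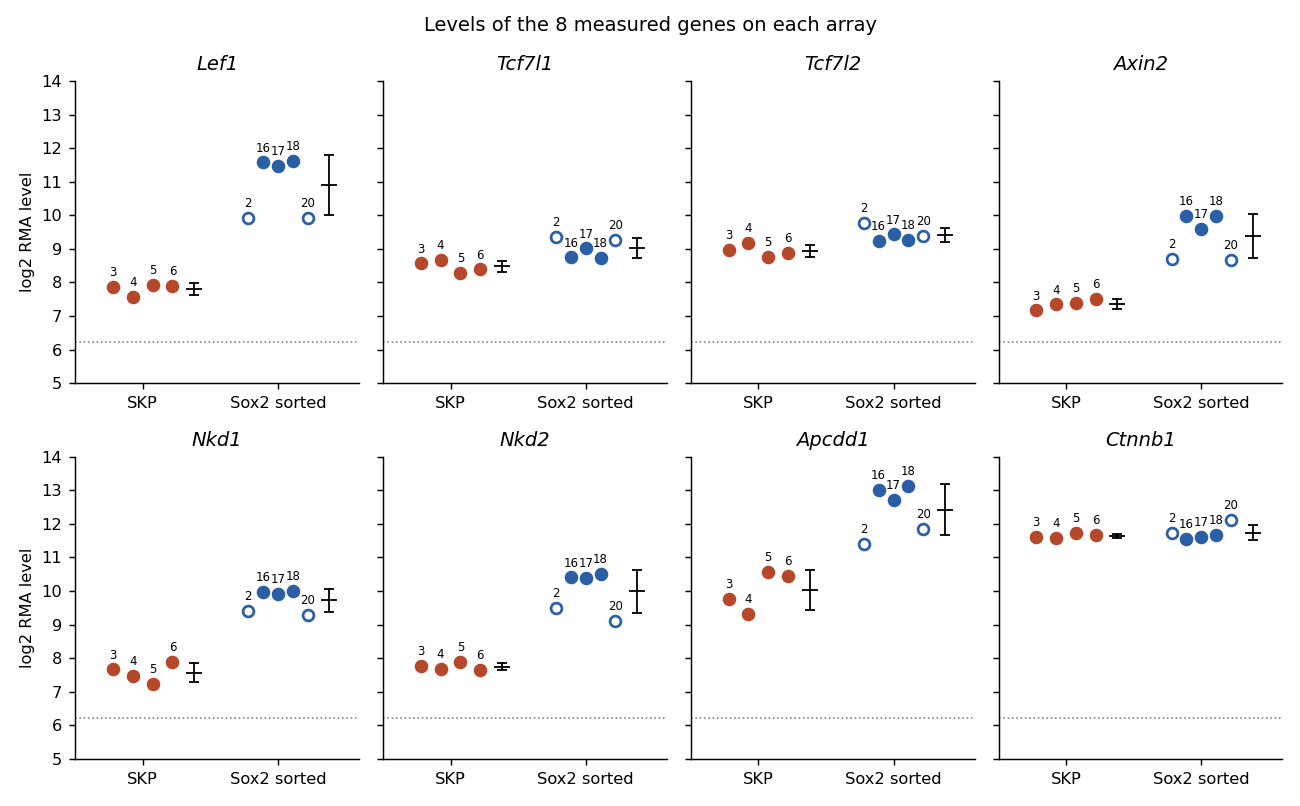
Log2 RMA level (vertical axis) of the 8 measured genes on each array, with SKP arrays (red) left of Sox2-sorted arrays (blue). Numbers are replicates, open circles are sorted replicates 2 and 20, black bars are mean ± SD, and the dotted line at 6.23 is the highest 95th percentile of the olfactory and vomeronasal receptor genes. The groups do not overlap for any gene except Ctnnb1.

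Promoter sequence of Lef1, Tcf7l1, Tcf7l2 and Axin2 is shown. TCF and LEF factors can act on their own genes and on Axin2 through the letters CTTTGA or CTTTGT. These letters are the core of the motif that the factors bind. The motifs differ only in the last letter and were searched on both strands, so that a match on the other strand reads TCAAAG or ACAAAG. RefSeq promoter windows of build GRCm38.p6, which run from 250 bases before to 50 bases after an annotated start, were found for 8 of the 9 listed genes, Tcf7 included. 3 of their 14 windows held a match, and 31.2% of all 32851 windows did. The window at a start inside Lef1, downstream of its other annotated starts, held 3 matches, at 180, 146 and 120 bases before the start. The Tcf7l1 window and the downstream window of Tcf7l2 held 1 each, at 28 and 14 bases before the start. The Axin2, Nkd1, Nkd2, Ctnnb1 and Tcf7 windows held none, nor did the upstream windows of Lef1 and Tcf7l2. This says only that these letters are absent there. For Lef1 and Tcf7l2 only the downstream window, which holds the matches, is printed. The 250 bases before the start are printed, 5′ to 3′ along the gene's strand, with matches in capitals.
Lef1 (chr3:131156044-131156293, plus strand): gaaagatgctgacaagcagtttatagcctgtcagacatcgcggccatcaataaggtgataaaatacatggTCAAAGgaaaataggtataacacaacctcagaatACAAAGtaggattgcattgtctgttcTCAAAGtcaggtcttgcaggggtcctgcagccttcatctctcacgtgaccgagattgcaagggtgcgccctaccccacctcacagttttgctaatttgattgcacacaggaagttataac
Tcf7l1 (chr6:72789046-72789295, minus strand): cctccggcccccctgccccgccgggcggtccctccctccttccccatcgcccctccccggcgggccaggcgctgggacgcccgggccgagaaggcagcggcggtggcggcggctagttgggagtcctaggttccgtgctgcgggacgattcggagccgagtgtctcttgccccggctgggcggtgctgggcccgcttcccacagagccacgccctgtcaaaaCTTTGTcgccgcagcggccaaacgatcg
Tcf7l2 (chr19:55895071-55895320, plus strand): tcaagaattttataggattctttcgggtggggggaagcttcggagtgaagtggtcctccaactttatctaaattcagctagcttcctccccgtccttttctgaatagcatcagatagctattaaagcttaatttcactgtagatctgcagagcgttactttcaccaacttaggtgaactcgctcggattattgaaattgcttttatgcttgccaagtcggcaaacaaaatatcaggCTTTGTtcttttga
Axin2 (chr11:108920099-108920348, plus strand): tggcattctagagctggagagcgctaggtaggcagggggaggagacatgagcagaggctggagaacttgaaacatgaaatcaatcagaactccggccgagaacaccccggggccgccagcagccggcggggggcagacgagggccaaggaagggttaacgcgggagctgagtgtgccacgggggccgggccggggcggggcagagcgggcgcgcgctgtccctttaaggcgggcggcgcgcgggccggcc

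Lef1, which pairs with beta-catenin to activate targets, differed most of the 8 genes. Its level was 7.86, 7.56, 7.92 and 7.91 on SKP replicates 3, 4, 5 and 6, against 9.93, 11.58, 11.46, 11.61 and 9.93 on sorted replicates 2, 16, 17, 18 and 20. Every SKP array was below every sorted array, with a gap of 2.01 between the groups, and sorted replicates 2 and 20 held the same value and were the lowest of their group. The log2 fold change was -3.09 ± 0.39 (SE), or 8.51-fold lower, with a 95% confidence interval of 4.65-fold to 15.6-fold (limma adjusted p = 0.000165). Only 115 of the 19938 genes (0.577%) had a more negative log2 fold change. Without sorted replicates 2 and 20 Lef1 was 13.4-fold lower (limma adjusted p = 3.61e-08). Human LEF1 is known to have an internal start whose product lacks the part that binds beta-catenin, and 1 value per gene does not separate such forms.

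Tcf7l1 and Tcf7l2 differed far less than Lef1. Tcf7l1, known in skin as a repressor in follicle stem cells, was at 8.57, 8.67, 8.28 and 8.39 in SKPs, against 9.35, 8.74, 9.02, 8.73 and 9.27 in Sox2-sorted cells, in the same order of replicates. The groups were apart by 0.07, and sorted replicates 2 and 20 were the highest of all. Tcf7l1 was 1.46-fold lower (log2 fold change -0.55 ± 0.15, limma adjusted p = 0.0162), but the call was lost on leaving out SKP replicate 5 (limma adjusted p = 0.0509). Tcf7l2, the TCF factor studied most in gut epithelium, was at 8.97, 9.17, 8.76 and 8.88 in SKPs, against 9.76, 9.24, 9.43, 9.27 and 9.39 in Sox2-sorted cells. The groups were again apart by 0.07, and only sorted replicate 2 stood clear of the rest of its group. It was 1.39-fold lower (log2 fold change -0.47 ± 0.12, limma adjusted p = 0.0130), with an interval of 1.14-fold to 1.68-fold. The intervals of both genes lay within 2-fold and did not reach that of Lef1. Without sorted replicates 2 and 20 the folds shrank, to 1.28-fold for Tcf7l1 and 1.29-fold for Tcf7l2 (limma adjusted p = 0.0330 and 0.0193).

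Ctnnb1, which encodes beta-catenin, was at 11.62, 11.57, 11.72 and 11.67 in SKPs, against 11.73, 11.54, 11.61, 11.67 and 12.11 in Sox2-sorted cells. The groups overlapped, and sorted replicate 20 was the highest. The log2 fold change was -0.09 ± 0.12 (limma adjusted p = 0.589), with a 95% confidence interval of -0.35 to 0.17, that is from 1.27-fold lower to 1.12-fold higher in SKPs. The sign turned on leaving out sorted replicate 20 (0.0069) and without replicates 2 and 20 (0.038). RNA levels do not show how much beta-catenin protein is in the nucleus, which the pathway controls by protein turnover.

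**Figure D2:**
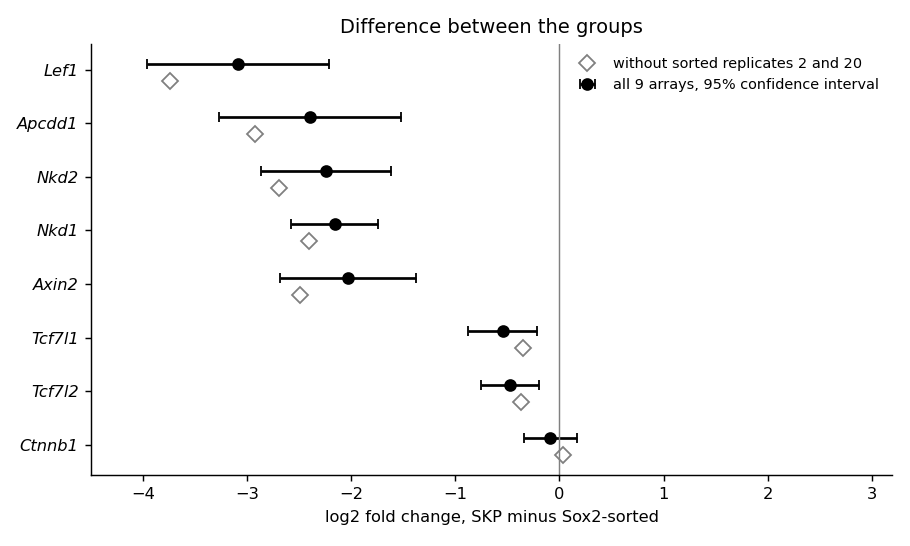
Log2 fold change (horizontal axis, SKP minus Sox2-sorted) of the 8 genes from limma, with 95% confidence intervals over all 9 arrays (black) and the value without sorted replicates 2 and 20 (open diamonds). Lef1, Apcdd1, Nkd2, Nkd1 and Axin2 lie below -2, Tcf7l1 and Tcf7l2 near -0.5, and the interval of Ctnnb1 spans 0.

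Axin2, an inducible scaffold of the destruction complex and a widely used readout of Wnt activity, was at 7.17, 7.35, 7.39 and 7.51 in SKPs, against 8.69, 9.97, 9.59, 9.99 and 8.68 in Sox2-sorted cells. The groups were apart by 1.17, with sorted replicates 2 and 20 the lowest of the sorted arrays. Axin2 was 4.09-fold lower (log2 fold change -2.03 ± 0.29, limma adjusted p = 0.000386). Its constitutive paralogue Axin1, chosen after its values were seen, was at 8.14 ± 0.26 in SKPs (SD, n = 4) and 8.64 ± 0.11 in Sox2-sorted cells (n = 5), 1.41-fold lower (limma adjusted p = 0.00932).

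The Naked cuticle genes encode proteins that bind Dishevelled and interrupt the signal upstream of the destruction complex. Nkd1 was at 7.67, 7.47, 7.23 and 7.89 in SKPs, against 9.42, 9.97, 9.91, 10.01 and 9.29 in Sox2-sorted cells. It was 4.47-fold lower (log2 fold change -2.16 ± 0.19, limma adjusted p = 1.40e-05), and its sorted arrays were the closest together of the 5 genes with the larger differences, with a range of 0.72. Nkd2 was at 7.76, 7.68, 7.89 and 7.65 in SKPs, against 9.50, 10.41, 10.40, 10.51 and 9.12 in Sox2-sorted cells. It was 4.73-fold lower (log2 fold change -2.24 ± 0.28, limma adjusted p = 0.000151). For both genes the groups were well apart, by 1.41 and 1.23, and sorted replicates 2 and 20 were again the lowest of the sorted arrays.

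Apcdd1 encodes a membrane glycoprotein that inhibits Wnt signalling at the cell surface, and mutations of the human gene cause a hereditary loss of hair. It was at 9.77, 9.31, 10.57 and 10.44 in SKPs, against 11.41, 13.00, 12.71, 13.13 and 11.86 in Sox2-sorted cells. It varied widely within each group, with a range of 1.26 in SKPs and 1.72 in Sox2-sorted cells, and the gap between the groups was 0.84. Apcdd1 was 5.27-fold lower (log2 fold change -2.40 ± 0.39, limma adjusted p = 0.000867). The fold for each feedback gene without sorted replicates 2 and 20 was 5.65 for Axin2, 5.29 for Nkd1, 6.47 for Nkd2 and 7.59 for Apcdd1.

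The groups did not overlap for any of the 7 called genes, and 15.5% of all genes lay entirely lower in SKPs in this way. An exact permutation test over the 126 splits of the arrays, two-sided and unadjusted, gave 0.0159 for each of the 7 genes, the smallest p that 4 arrays against 5 can give, and 0.635 for Ctnnb1.

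Within the Sox2-sorted group the 8 genes fell into 2 patterns, described here without a test. Lef1, Axin2, Nkd1, Nkd2 and Apcdd1 were lower on replicates 2 and 20 than on replicates 16, 17 and 18, by a mean of 1.63, 1.17, 0.61, 1.13 and 1.31 on the log2 scale. Tcf7l1, Tcf7l2 and Ctnnb1 were higher on replicates 2 and 20, by a mean of 0.48, 0.26 and 0.32. However, Tcf7l2 on replicate 20 lay within the values of the other 3. Ctnnb1 was only 0.12 above the median of the other 3 on replicate 2, and 0.51 above it on replicate 20. Marker lists of other cells moved across the same arrays. The mean level of 20 dermal papilla genes was 10.39 on replicate 2 and 9.94 on replicate 20, and 11.40 to 11.56 on the other 3. The mean of 16 measured hair matrix and shaft genes was 7.69 and 7.68 on these replicates, and 9.64 to 9.71 on the other 3. The mean of 18 keratinocyte genes was 10.27 and 11.68, and 9.52 to 9.70 on the other 3, and that of 13 measured fibroblast genes, Cd34 left out, was 10.52 and 10.91, and 9.79 to 9.82 on the other 3. The mean of 11 endothelial genes was 7.07 and 7.59, and 6.38 to 6.48 on the other 3, and that of 10 Schwann cell genes was 9.79 and 9.29, and 8.88 to 9.27 on the other 3. The melanocyte, T cell, myeloid, and smooth muscle and pericyte means moved by at most 0.55 from the median of replicates 16, 17 and 18. The part of these cell mixtures in the levels of the 8 genes was not tested.

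**Figure D3:**
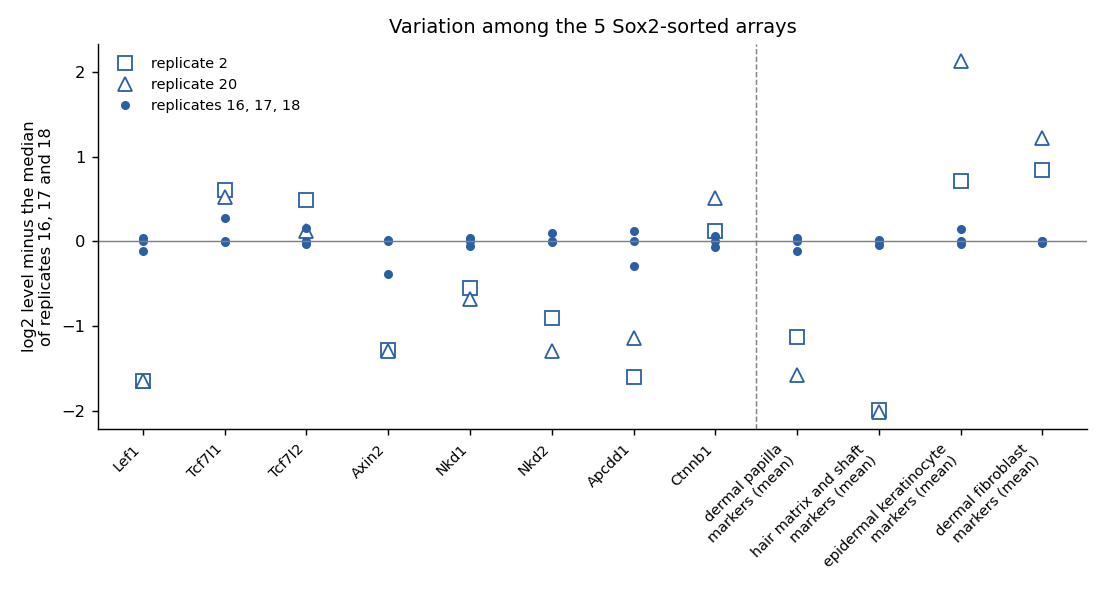
Log2 level on each of the 5 Sox2-sorted arrays minus the median of replicates 16, 17 and 18 (vertical axis), for the 8 genes and the means of 4 marker lists, with Cd34 in the fibroblast mean. Replicates 2 (squares) and 20 (triangles) are low for Lef1, the 4 feedback genes and the papilla and hair matrix lists. They are high for Tcf7l1 and the keratinocyte and fibroblast lists. For Ctnnb1 mainly replicate 20 is high.

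The same lists also differed between the groups, where 16.9% of all genes were lower and 20.2% higher. A gene of these lists that was above the receptor gene percentile on no array of its lower group has only a bound, given as at least so many fold with that percentile as the floor on each array. Of the 20 papilla genes 19 were lower and 1 higher in SKPs, and the list mean was 7.27 to 7.47 in SKPs, against 9.94 to 11.56 in Sox2-sorted cells. Before the floor was applied they were led by Lepr and Wif1. Lepr was at least 28.9-fold lower, a bound below the 50.1-fold of Ptch1, which was chosen after its values were seen. Wif1 was 64.7-fold lower, or 102-fold without sorted replicates 2 and 20. Of the 16 hair matrix and shaft genes 12 were lower and 0 higher, or 16 lower without those replicates. These genes mark a compartment where Lef1 is also made. Over all 9 arrays they were led by the keratin genes Krt25, above the percentile on 2 of the 4 SKP arrays, and Krt28, at least 8.23-fold lower. The bound of Krt71, another keratin gene, was larger, at least 17.4-fold lower. The list mean was 6.12 to 6.48 in SKPs, against 7.68 to 9.71 in Sox2-sorted cells. Of the 18 keratinocyte genes 17 were lower and 0 higher (led by the desmosome genes Dsc3, above the percentile on 1 of the 4 SKP arrays, and Dsp, 27.8-fold lower), with a list mean of 6.66 to 6.93 in SKPs, against 9.52 to 11.68 in Sox2-sorted cells. Lef1 is also a T cell gene, and the mean of 11 measured T cell markers was 5.53 to 5.69 in SKPs, against 5.49 to 5.61 in Sox2-sorted cells, with 8 of the 11 at or below the receptor gene percentile on all 9 arrays. The 2 called genes, Il7r (higher) and Cd3g (lower), were below that percentile on every array, and no fold is given for them. Of the 12 myeloid genes 11 were higher and 0 lower (led by Lyz2 and C1qc, which were above the percentile on all 4 SKP arrays, against 2 and 1 of the 5 sorted arrays), with a list mean of 6.97 to 8.56 in SKPs, against 5.89 to 6.24 in Sox2-sorted cells. Cd34 is on the fibroblast list and was used for the sort, so its difference is not a result. Of the other 13 fibroblast genes 5 were higher and 1 lower (7 and 3 without sorted replicates 2 and 20), led by the proteoglycan gene Lum (20.1-fold higher, or 39.0-fold without those replicates) and by Dpp4 (at least 5.71-fold lower). Their mean was 10.48 to 10.72 in SKPs, against 9.79 to 10.91 in Sox2-sorted cells. Of 11 melanocyte genes 8 were lower and 1 higher, led by Ednrb and Tyrp1 (14.4-fold and 9.50-fold lower). Of 10 measured Schwann cell genes 9 were lower and 1 higher, led by Erbb3 (18.2-fold lower) and Cdh19, which was above the percentile on 2 of the 4 SKP arrays. Of 11 smooth muscle and pericyte genes 7 were lower and 1 higher, led by Myh11, above the percentile on 3 of the 4 SKP arrays, and Rgs5 (at least 10.1-fold lower). Of 11 endothelial genes 2 were lower and 0 higher, Kdr (2.11-fold) and Erg (1.46-fold), and 3 were higher and 2 lower without those replicates. What these cells contribute to the differences of the 8 genes was not tested.

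The profiles of the 8 genes over the 9 arrays were compared by their mean absolute difference, each centred on its own mean. Tcf7l1 and Tcf7l2 were the closest pair, at 0.08 on the log2 scale, and Axin2 and Nkd2 followed at 0.15. Nkd2 was the 6th closest of 19937 genes to Axin2, and Tcf7l2 was the 4th closest to Tcf7l1. In the other direction Axin2 was the 8th closest to Nkd2, and Tcf7l1 the 19th closest to Tcf7l2. The distance is not scaled to how much a gene varies, so genes that vary little lie close together. Beyond the list, the genes most like Lef1 were Ltbp1 (0.09), which encodes a latent TGF-beta binding protein, Ntng1 (0.15), which encodes netrin-G1, and Gna14 (0.16), which encodes a G protein subunit. The median distance of all genes from Lef1 was 1.56. Those most like Axin2 were Nr3c2 (0.11), the mineralocorticoid receptor, Cacna2d3 (0.12), a calcium channel subunit, and Kctd1 (0.12). Nkd1 was closest to Fgfr3 (0.13), Pdzd2 (0.13) and Ephb6 (0.15), and Nkd2 to Pakap (0.12), Dock6 (0.13) and Ammecr1 (0.14). Apcdd1 had no neighbour as near, with Gdf10, Lrrc4c and Grb14 all at 0.26. Ntng1, Nr3c2, Cacna2d3 and Lrrc4c were below the receptor gene percentile on every SKP array, and Gna14 was above it only on SKP replicate 4. Over those arrays their distances therefore rest on values at the level of silent genes. Each distance is taken over the same 9 arrays and is a description only.

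Of 19 genes that degrade or stabilise beta-catenin 12 were lower and 0 higher (16.9% and 20.2% of all genes), with a median log2 fold change of -0.32 and none past 2-fold. The 3 with the largest differences were Siah1a, a ubiquitin ligase (1.99-fold, limma adjusted p = 4.73e-05), the kinase gene Csnk1e (1.48-fold, limma adjusted p = 0.00185) and Amer1, which holds the complex at the membrane (1.46-fold, limma adjusted p = 0.00148). Siah1a was at 7.92 ± 0.20 in SKPs (SD, n = 4) and 8.91 ± 0.10 in Sox2-sorted cells (n = 5). Among the Dishevelled genes, the partners of Nkd1 and Nkd2, chosen after their values were seen, Dvl3 was 1.42-fold lower (limma adjusted p = 0.000306) and Dvl2 had a log2 fold change of 0.19 (limma adjusted p = 0.0973). Dvl1 had a log2 fold change of -0.09 (limma adjusted p = 0.510, or 0.0273 without sorted replicates 2 and 20).

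Of 26 cofactor genes of beta-catenin and TCF 15 were lower and 1 higher (16.9% and 20.2% of all genes), with a median log2 fold change of -0.35, and 6 were lower by at least 2-fold (6.25% of all genes). The number higher was 4 without sorted replicates 2 and 20 and 2 without SKP replicate 5. Tle4 and Tle1, Groucho-type corepressors that bind TCF factors in the absence of beta-catenin, were 3.99-fold (limma adjusted p = 0.000126) and 2.51-fold lower (limma adjusted p = 4.62e-05). Tle4 was at 7.40, 7.74, 7.65 and 7.26 in SKPs, against 9.13, 9.99, 9.73, 9.89 and 8.81 in Sox2-sorted cells, with replicates 2 and 20 again the lowest sorted arrays. Hipk2, a nuclear kinase, was 2.97-fold lower (limma adjusted p = 6.22e-07). The coactivator genes Bcl9 (2.49-fold), Crebbp (2.15-fold) and Ep300 (2.02-fold), chosen after their values were seen, were also lower (limma adjusted p = 3.25e-05, 2.63e-05 and 7.78e-05), so that repressor and activator partners were both among the 15. The 1 higher gene was the deacetylase gene Hdac1, at 11.25 ± 0.05 in SKPs (SD, n = 4) and 10.77 ± 0.08 in Sox2-sorted cells (n = 5), 1.40-fold higher (limma adjusted p = 0.000426).

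Of 18 other genes known as Wnt targets 9 were lower and 3 higher in SKPs (16.9% and 20.2% of all genes), with a median log2 fold change of -0.50. Tnfrsf19, a receptor of the TNF family also called Troy, was 7.59-fold lower (limma adjusted p = 2.22e-05), at 6.80 ± 0.24 in SKPs (SD, n = 4) and 9.73 ± 0.59 in Sox2-sorted cells (n = 5). Bambi, a decoy receptor of the TGF-beta family, was 6.71-fold lower (limma adjusted p = 0.000787, or 11.2-fold without sorted replicates 2 and 20). Notum, an enzyme that inactivates Wnt ligands and is also on the papilla list, was 4.94-fold lower (limma adjusted p = 0.00344, or 8.42-fold without those replicates). Notum was at 6.51, 6.28, 6.86 and 6.84 in SKPs, against 7.78, 9.92, 9.32, 9.85 and 7.78 in Sox2-sorted cells, a pattern over the sorted arrays like that of Lef1.

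The 3 higher genes were Ccnd1, the gene of cyclin D1, Ccn4, a matricellular gene, and Fosl1, an AP-1 subunit. They were 16.7% of the 18 genes, beside 20.2% of all genes higher. All 3 were higher by at least 2-fold, against 5.46% of all genes, but Fosl1 was only 1.89-fold higher without SKP replicate 5. Of the 18 genes 7 were lower by at least 2-fold, against 6.25% of all genes. Ccnd1 was at 11.62, 11.19, 12.08 and 11.85 in SKPs, against 10.45, 9.89, 10.02, 9.84 and 10.74 in Sox2-sorted cells, 2.82-fold higher (limma adjusted p = 0.000509). Ccn4 was 2.35-fold higher (limma adjusted p = 0.00405) and Fosl1 2.09-fold higher (limma adjusted p = 0.000312). Unlike Axin2, Nkd1, Nkd2 and Apcdd1, Ccnd1 and Ccn4 were higher on sorted replicates 2 and 20 than on the other sorted arrays. Znrf3 and Rnf43, ligases that remove Wnt receptors and act as feedback genes at the membrane, were chosen after their values were seen and were 2.59-fold (limma adjusted p = 8.53e-05) and 1.73-fold lower (limma adjusted p = 0.0214). Among the sorted arrays both were lowest on replicate 2 (8.18 for Znrf3 and 6.60 for Rnf43) and highest on replicate 20 (9.08 and 7.86).

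**Figure D4:**
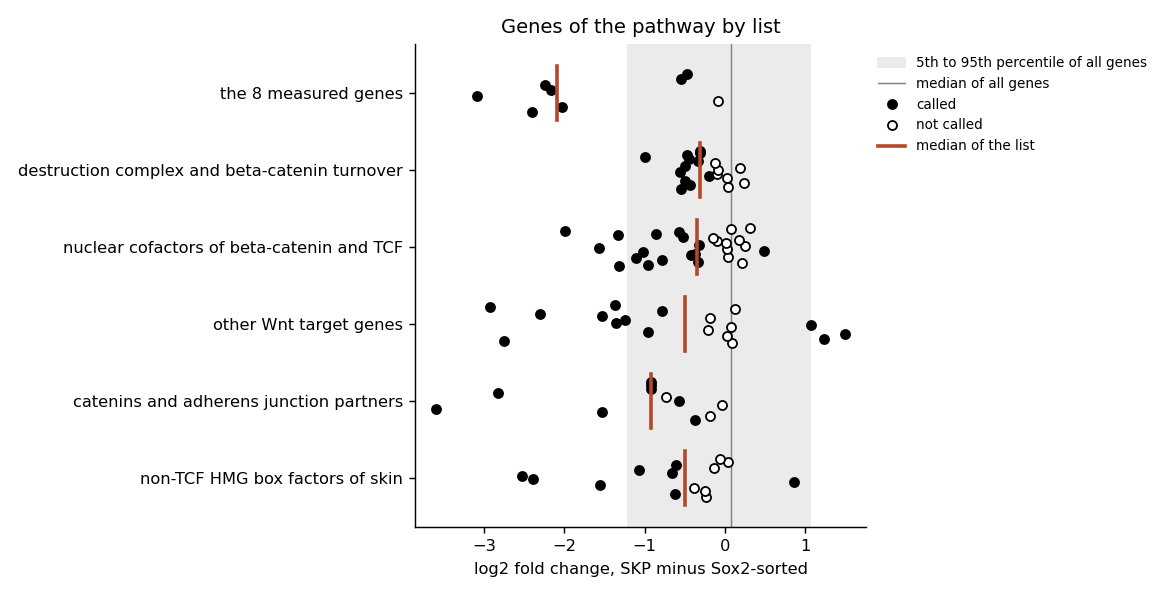
Log2 fold change (horizontal axis, SKP minus Sox2-sorted) of the 8 genes and of the genes in 5 related lists, with called genes filled, others open, and the median of each list in red. The shaded band runs from the 5th (-1.20) to the 95th percentile (1.05) of all genes, and Lef1 and the 4 feedback genes lie left of it.

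Beta-catenin also works at cell junctions, where other catenins share its partners. Of 11 catenin and junction genes 8 were lower and 0 higher (16.9% and 20.2% of all genes), with a median log2 fold change of -0.92. The largest differences were those of Ctnnal1 (12.1-fold, limma adjusted p = 3.47e-06), an alpha-catenin relative, and Jup (7.09-fold, limma adjusted p = 5.71e-06), the gene of plakoglobin, the closest relative of beta-catenin. Without sorted replicates 2 and 20 the folds shrank, to 9.28-fold for Ctnnal1 and 6.18-fold for Jup. Jup was at 7.21, 7.38, 7.46 and 7.42 in SKPs, against 9.97, 10.12, 10.08, 9.80 and 11.01 in Sox2-sorted cells, highest on replicate 20, where the keratinocyte list was also highest. Ctnna3 was at least 1.76-fold lower (limma adjusted p = 0.00279), with its SKP mean of 5.42 at the level of the silent receptor genes.

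Of 14 other HMG box genes of skin 7 were lower and 1 higher, or 6 and 1 of 13 without Sox2, which was used for the sort (16.9% lower and 20.2% higher of all genes). The median log2 fold change of the 13 was -0.38. Sox18, which is active in the papilla and in vessels, was 5.24-fold lower, and Sox10, a glial and melanocyte factor, 2.95-fold lower (limma adjusted p = 1.97e-06 and 0.000103). Sox11 was 1.81-fold higher (limma adjusted p = 0.0162), a call that was lost on leaving out SKP replicate 6 (limma adjusted p = 0.0509). The difference of Sox2 itself is not a result.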

How the data were processed

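For every array the authors deposited RMA values on the log2 scale, made with RMA and Affymetrix Expression Console, with limma also named, per the submitters' processing notes, without versions or settings given. RMA includes background adjustment, quantile normalization and a summary over probes. The 35556 probe sets were named from the platform annotation, 21789 of them with 1 symbol. Symbols were looked up by Entrez identifier, and 0 changed. For the 999 genes with several probe sets the one with the highest mean was taken, leaving 19938 genes.

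SKP minus Sox2-sorted differences were fitted over all genes with limma 3.58.1 in R 4.3.3 (lmFit and eBayes, no trend, not robust, two-sided), with Benjamini-Hochberg adjustment over all genes, and called at an adjusted p under 0.05. The calculation was tested on simulated data. The design text reports independent preparations without technical replicates. The number of arrays limits the precision. Lists were described by counts and medians, without a set test. Old and new symbols of the same gene were counted once.

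The rule for naming genes takes the 8 measured genes, the 3 called genes with the largest change in each direction of each pathway list, and the 3 genes closest in profile to each gene that differed by at least 2-fold, leaving out unnamed gene models. Other genes are said to be chosen after their values were seen. Marker lists were used for counts and list means. Leaving Sox2 and Cd34 out of their lists, and the floor for genes not above the receptor gene percentile, were chosen after seeing the data. The genes, lists and alternatives were chosen with earlier results of these data known. Promoter sequences are from RefSeq (GRCm38.p6), and the build of the array annotation is not given in the sources used here. The alternatives were quantile normalization, median centring, removal of genes with a mean level under 6.31, a mean over probe sets, every probe set on its own, array weights, trend and robust fitting, a threshold of 0.01, and leaving out arrays. Figures were drawn with matplotlib 3.10.9.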

Additional observations from a re-analysis of the deposited data

Results flagged for a closer look

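Highest or lowest arrays far from the rest of their group were found in 7 of 86 groups of values tested with Dixon's criterion, beside about 4.3 that chance gives. Lef1 was at 7.56 on SKP replicate 4, against 7.86 to 7.92 on the other SKP arrays. Hipk2 was at 7.61 on SKP replicate 6, against 7.82 to 7.86 on the others. Bambi was at 7.64 on SKP replicate 5, against 7.22 to 7.27 on the others. Jup was at 11.01 on sorted replicate 20, against 9.80 to 10.12 on the other sorted arrays. Of the list means, the keratinocyte list was at 6.66 on SKP replicate 5, against 6.93 on the other SKP arrays. The Schwann cell list was at 7.40 on the same array, against 7.62 to 7.67 on the others. The melanocyte list was at 8.82 on sorted replicate 20, against 8.51 to 8.55 on the other sorted arrays.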

How the results depend on the processing

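Lef1, Axin2, Nkd1, Nkd2 and Apcdd1 kept their direction and their call under all 18 alternatives, with log2 fold changes from -3.74 to -2.91 for Lef1, -2.50 to -1.88 for Axin2, -2.40 to -2.05 for Nkd1, -2.69 to -2.11 for Nkd2 and -2.92 to -2.16 for Apcdd1. Their limma adjusted p reached at most 0.00449, for Apcdd1. Each of these genes has 1 probe set, so the alternatives that handle probe sets differently could not change their levels. Removal of low genes, trend and robust fitting and the threshold of 0.01 leave the fold as it was and bear only on the call. At an adjusted p under 0.01 neither Tcf7l1 nor Tcf7l2 was called, so that 5 genes were lower. Tcf7l1 also lost its call without SKP replicate 5. The number lower was 6 to 7 on leaving out each array in turn. Ctnnb1, not called in any setting, turned sign with array weights (0.025), without sorted replicate 20 (0.0069) and without both sorted replicates 2 and 20 (0.038), with a range of -0.14 to 0.0069 on leaving out each array. Among the destruction complex genes 1 was higher after median centring, against 0. Among the cofactors, where 1 gene was higher, 2 were higher after quantile normalization, 3 after median centring, 6 with array weights, 4 without both sorted replicates 2 and 20, and 1 to 2 on leaving out each array. Among the other HMG box genes 0 were higher at an adjusted p under 0.01, and 0 to 1 on leaving out each array. The causes were not tested. No paired analysis was possible because the groups share no replicate number. The number of arrays and the level of silent genes limit what can be seen for values near 6.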
